A study of Mus musculus with 23 samples.

Results

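Complement is a set of secreted proteins and surface receptors that tags cells, debris and synapses for removal. The genes described here are 6 complement genes of the mouse hippocampus: C1qa, C1qb and C1qc, which encode the 3 chains of C1q, the recognition molecule of the classical pathway, the pathway proteins C4b and C3, and Serping1, which encodes the C1 inhibitor. They were taken by symbol from a table of 13766 genes, and all 6 symbols were found. The rule itself reads symbols only, but the 6 genes were chosen with earlier results of these data known.

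In the classical pathway C1q binds a target and activates the proteases C1r and C1s, which cleave C4 and C2. The fragments form the enzyme that cleaves C3, and C3 fragments on the target are read by receptors on phagocytes. In the brain C1q is made mainly by microglia, C4b and C3 are induced in astrocytes with age and inflammation, and C1 inhibitor is made by cells of vessels and meninges. C1q and C3 are known for marking synapses that microglia remove in the developing hippocampus and visual system.

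The tissue came from C57Bl/6J mice of the FCG model, named for its core genotypes, in which the testis-determining gene Sry is carried by an autosome and missing from the Y chromosome, so that the gonad does not follow the sex chromosomes. The 23 libraries, each from a different animal of about 12 months, form 4 groups. XXF mice (n = 5) have XX chromosomes and ovaries, XXM mice (n = 6) XX chromosomes and testes, XYF mice (n = 6) XY chromosomes and ovaries, and XYM mice (n = 6) XY chromosomes and testes. All groups were untreated as far as the labels state, and they were caged by genital appearance, so cage and gonad cannot be told apart. The Y chromosome without Sry is shared by both XY groups, and both groups with testes carry the Sry transgene. Hippocampi were taken whole, so in these bulk libraries fewer cells of a type and less RNA per cell cannot be told apart.

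Library totals ran from 10257751 to 36078221 estimated counts. The Y-linked genes Uty, Kdm5d, Eif2s3y and Ddx3y were at or below 0.437 counts per 1000000 counts (CPM) in every XX library and at or above 12.8 CPM in every XY library. Xist, the RNA of the inactive X chromosome, was at 936 to 1468 CPM in XX libraries and at most 2.86 CPM in 11 of 12 XY libraries. In XYF replicate 4 it was at 94.1 CPM, and the XYF contrasts of the C1q genes, C4b and C3 are also given without that library. Hippocampal neuron, astrocyte, oligodendrocyte and microglia markers were above 0 in every library. The summed choroid plexus markers ran from 293 to 5894 CPM, with a median of 3705 CPM in XXM and of 343 to 404 CPM in the other groups.

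The 3 C1q genes lie next to each other on chromosome 4 (GRCm38, minus strand), C1qb at 136880145-136886177, C1qc at 136889802-136892914 and C1qa at 136895916-136898844. C4b (chromosome 17, 34728381-34743897), C3 (chromosome 17, 57203973-57228136) and Serping1 (chromosome 2, 84765360-84775429) are also on the minus strand. The 250 bases before the start are shown for the C1q genes with an entry in the RefSeq promoter table. Sequences are those of GRCm38.p6 (minus strand, 5′ to 3′), with the C3 promoter beside them. The entries are chr4:136886201-136886450 for C1qb, chr4:136892915-136893164 for C1qc and chr17:57228137-57228386 for C3. Capitals mark the only match to any motif searched, the complement strand of GAGGAAGT, a core bound by the myeloid factor PU.1.

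C1qb: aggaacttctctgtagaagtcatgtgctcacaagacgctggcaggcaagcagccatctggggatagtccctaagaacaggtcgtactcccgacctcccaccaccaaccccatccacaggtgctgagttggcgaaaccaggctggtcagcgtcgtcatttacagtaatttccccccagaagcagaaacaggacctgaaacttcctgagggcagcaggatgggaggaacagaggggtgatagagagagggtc
C1qc: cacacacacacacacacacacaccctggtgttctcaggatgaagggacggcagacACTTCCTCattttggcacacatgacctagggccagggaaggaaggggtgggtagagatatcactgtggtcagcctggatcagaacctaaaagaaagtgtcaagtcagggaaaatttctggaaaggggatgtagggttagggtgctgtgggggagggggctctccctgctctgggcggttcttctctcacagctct
C3: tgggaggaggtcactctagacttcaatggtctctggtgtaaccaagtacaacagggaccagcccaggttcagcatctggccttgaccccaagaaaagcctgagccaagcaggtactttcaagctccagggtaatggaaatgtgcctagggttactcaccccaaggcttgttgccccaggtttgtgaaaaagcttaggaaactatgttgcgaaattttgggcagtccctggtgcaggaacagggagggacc

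The match in C1qc lay 195 to 188 bases before the start, and the same letters on either strand occur in 2.44% of 32851 promoters of that length. Searched on both strands, the interferon-stimulated response element (2.98% of promoters), the STAT motif TTCNNNGAA (7.02%), a pair of NF-kB motifs (0.478% and 0.140%) and the TATA motif TATAAA (12.4%) were in none of the 3 windows. The PU.1 and TATA motifs were not among those planned for the search. The C1qb window holds ACTTCCT followed by another letter, which the search did not count. These are matches of letters in a window.

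C4b took the most counts of the 6 genes, at 109.7 ± 19.4 CPM (SD, n = 23), followed by C1qb at 55.4 ± 10.4, C1qa at 52.3 ± 10.01, C1qc at 48.4 ± 7.11, Serping1 at 6.74 ± 1.79 and C3 at 5.49 ± 1.78 CPM. Levels of different genes compare only per length, and divided by transcript length the order changed. C1qb (50.9 ± 9.59 CPM per kb) and C1qa (50.3 ± 9.62) did not differ beyond their spread, C1qb being the higher in 16 of 23 libraries. C1qc (40.2 ± 5.91 CPM per kb) was below C1qa in 23 of 23 libraries, C4b (20.4 ± 3.61) below C1qc in 23 of 23, Serping1 (3.81 ± 1.01) below C4b in 23 of 23 and C3 (1.07 ± 0.347) below Serping1 in 23 of 23. The C1q genes rested on 460 to 2166 counts per library and C4b on 1083 to 4125. C3 rested on 21 to 223 counts and Serping1 on 50 to 287, so their single-library values are less precise.

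**Figure D1:**
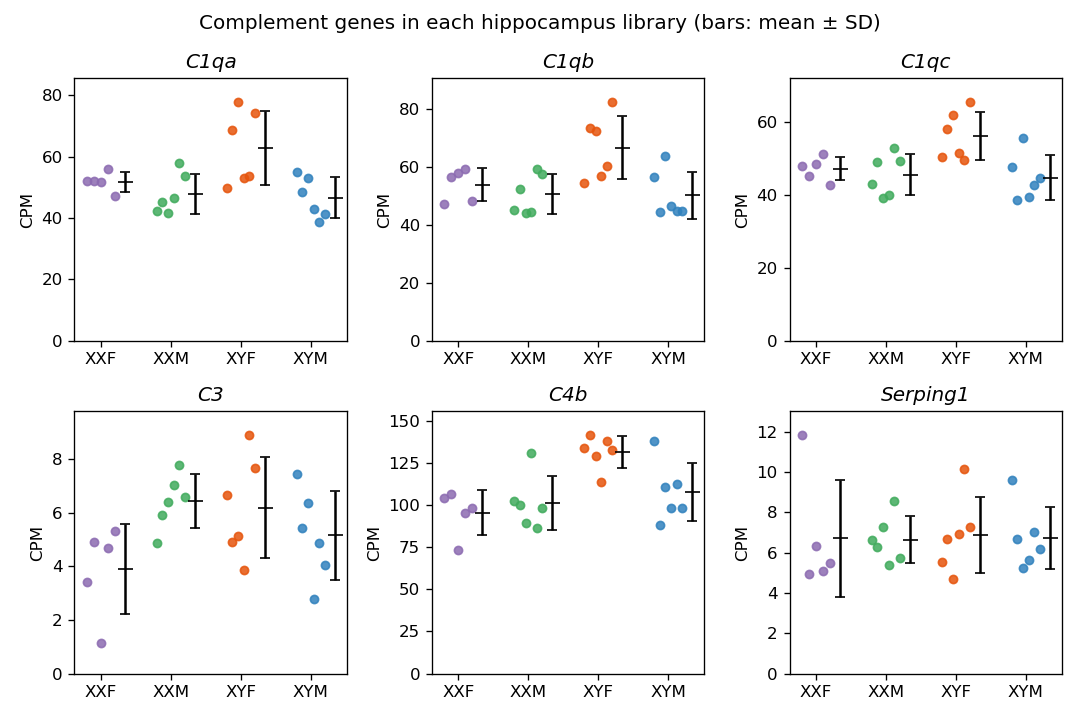
CPM of C1qa, C1qb, C1qc, C3, C4b and Serping1 in each of the 23 hippocampus libraries by group, each point a library and each bar the group mean ± SD. C4b in the 6 XYF libraries (114 to 142 CPM) lay above all 5 XXF libraries (73.3 to 106.5 CPM), and 3 XYF libraries stood highest for every C1q gene.

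Sex chromosomes and gonads were compared in 7 ways, as the average effect of each, their interaction and 4 pairwise contrasts. None of the 6 genes passed an adjusted p of 0.05 in any of them (quasi-likelihood test of edgeR, p adjusted by the method of Benjamini and Hochberg across the table). Few genes passed at all. The share of all genes called was 0.283% for XY minus XX (the sex chromosome effect), 0.16% for testes minus ovaries (the gonad effect), 0% for the interaction, 0.291% for XYF minus XXF, 0.116% for XYM minus XXM, 0% for XXM minus XXF and 0.225% for XYM minus XYF. At an unadjusted p under 0.05, 5 of the 6 genes differed for XYF minus XXF (5.17% of all genes), 4 for XYM minus XYF (8.63%), 3 for the gonad effect (13.6%), 3 for the interaction (3.23%), 1 for the sex chromosome effect (6.78%), 1 for XXM minus XXF (7.71%) and 0 for XYM minus XXM (5.29%). DESeq2 called 1 gene for XYF minus XXF, 1 for XYM minus XYF and 0 in the other comparisons. The 6 genes were chosen with earlier results known, and the 3 C1q genes moved together from library to library. These counts are therefore descriptions, not a test against the shares of all genes. XYF libraries enter XYF minus XXF and XYM minus XYF alike, so values of these contrasts are not independent. The interval plot of the pairwise differences shows the layout, and by mean CPM XYF was the highest group for 5 of the 6 genes, for Serping1 by a margin far inside its spread.

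**Figure D2:**
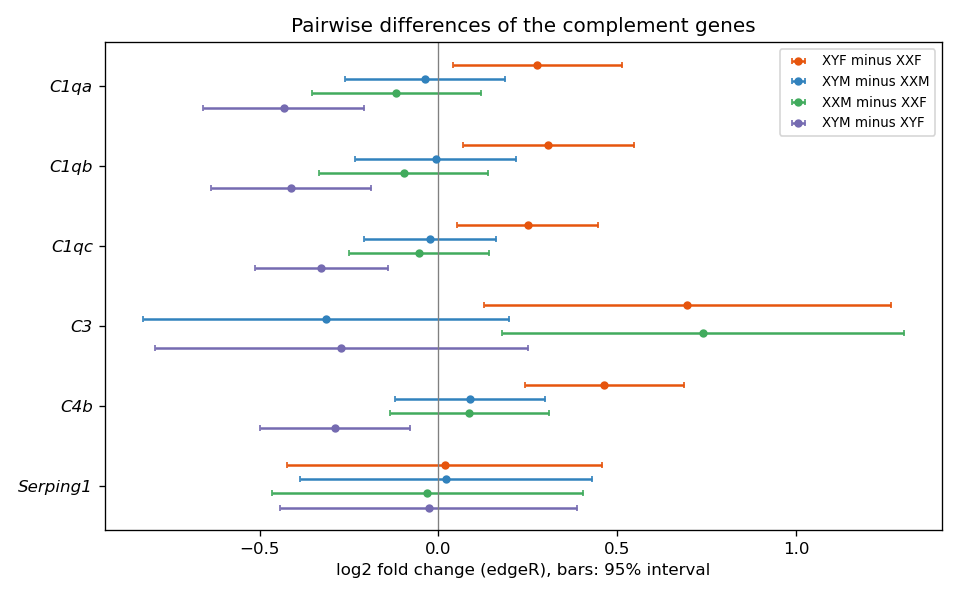
Log2 fold changes of the 6 complement genes (edgeR) for XYF minus XXF, XYM minus XXM, XXM minus XXF and XYM minus XYF, with 95% intervals that are not adjusted for multiple testing. For the C1q genes and C4b the intervals of the 2 contrasts with XYF lie away from 0 and those of the other 2 span it, and for Serping1 all 4 intervals span 0.

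The C1q genes had their highest group mean in XYF and similar means in the other groups. C1qa was at 52.2, 52.2, 51.6, 56.1 and 47.1 CPM in the XXF libraries, ran from 41.6 to 58.1 CPM in XXM (median 45.9), from 49.8 to 77.8 in XYF (median 61.2) and from 38.6 to 55.0 in XYM (median 45.7). The ranges overlapped between all groups. XYF replicates 2, 3 and 6 stood at 68.9, 77.8 and 74.1 CPM, above each of the other 20 libraries, while the remaining XYF libraries lay within the range of XXF and XXM.

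C1qb was at 47.4, 56.6, 57.9, 59.3 and 48.4 CPM in XXF, at 44.2 to 59.5 in XXM (median 48.8), at 54.6 to 82.4 in XYF (median 66.4) and at 44.6 to 63.9 in XYM (median 45.6). C1qc was at 47.9, 45.2, 48.5, 51.0 and 42.7 CPM in XXF, at 39.1 to 52.9 in XXM (median 45.9), at 49.4 to 65.3 in XYF (median 54.7) and at 38.4 to 55.4 in XYM (median 43.6). The highest libraries of both genes were again XYF replicates 2, 3 and 6. XYM replicate 3 was the highest of its group for both genes.

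The largest C1q differences were between the XY groups. XYM minus XYF was -0.43 ± 0.11 for C1qa on the log2 scale (SE; 95% interval -0.66 to -0.21; adjusted p = 0.152), -0.41 ± 0.11 for C1qb (adjusted p = 0.202) and -0.33 ± 0.09 for C1qc (adjusted p = 0.235). None passed the threshold. With DESeq2, C1qa passed (-0.43, adjusted p = 0.0301). Without XYF replicate 1 C1qa passed (-0.49, adjusted p = 0.0426), and without XYM replicate 3 C1qb (-0.49, adjusted p = 0.0439) and C1qc (-0.40, adjusted p = 0.0452) passed. Each gene passed in only 1 of 23 omissions of a library. The highest adjusted p over the omissions was 0.445 for C1qa, 0.517 for C1qb and 0.571 for C1qc. Without XYF replicate 4 the differences were -0.48, -0.45 and -0.35 for C1qa, C1qb and C1qc, with adjusted p of 0.107, 0.167 and 0.287.

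Averaged over sex chromosomes, testes minus ovaries was -0.28 ± 0.08 for C1qa, -0.25 ± 0.08 for C1qb and -0.19 ± 0.07 for C1qc (SE), with adjusted p of 0.161, 0.193 and 0.222. Without XYF replicate 4 these were -0.30, -0.27 and -0.20 (adjusted p = 0.162, 0.217 and 0.265). XYF minus XXF was 0.28 ± 0.12 for C1qa, 0.31 ± 0.12 for C1qb and 0.25 ± 0.10 for C1qc, with adjusted p of 0.842, 0.747 and 0.762, and 0.32, 0.35 and 0.27 without XYF replicate 4 (adjusted p = 0.760, 0.554 and 0.743). Between the groups with testes the XYM minus XXM differences were -0.04, -0.01 and -0.02, and the 95% interval for C1qb reached from -0.23 to 0.22. The interaction was -0.32, -0.32 and -0.27 with an adjusted p of 0.999 for each, so the gonad difference was not shown to depend on the sex chromosomes.

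Microglia markers were measured beside the C1q genes. All 10 were detected in every library, the lowest value being 3.02 CPM. Their summed level was 453 to 517 CPM in XXF, 448 to 546 in XXM, 492 to 633 in XYF and 450.3 to 566 in XYM. For XYF minus XXF 1 of 10 passed (0.291% of all genes). That gene, named after its value was seen, was Ctss, a lysosomal protease of microglia (0.53 ± 0.11, SE, adjusted p = 0.0150). For XYM minus XYF 8 of 10 had lower and 2 higher fitted values (median -0.20 on the log2 scale). In that contrast 5 were at an unadjusted p under 0.05 (8.63% of all genes) in edgeR's test. None passed the adjusted threshold (lowest adjusted p = 0.177). The ratio of the C1q sum to the marker sum was 0.312 ± 0.024 in XXF, 0.290 ± 0.034 in XXM, 0.332 ± 0.034 in XYF and 0.289 ± 0.021 in XYM (SD), with overlapping ranges. With the mean log2 CPM of the markers as a covariate, XYM minus XYF was -0.25, -0.21 and -0.20 for C1qa, C1qb and C1qc (adjusted p = 0.658, 0.665 and 0.691). With the same covariate XYF minus XXF was 0.13, 0.14 and 0.14 and the gonad effect was -0.19, -0.16 and -0.13.

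Libraries also differed in the balance of short and long transcripts. To score this balance, the log2 CPM of each gene was first centred on its mean over the libraries. The score of a library was the median of these deviations over 556 genes with transcripts under 1000 bases, minus the median over 2921 genes with transcripts over 5000 bases. The C1q transcripts measure 1040 to 1203 bases. Group means of the score were 0.018 in XXF, -0.066 in XXM, 0.112 in XYF and -0.059 in XYM, and XYF replicate 6 (0.364) and XYM replicate 3 (0.247), which were high for C1q in their groups, had the highest scores of theirs. With the score as a covariate, XYM minus XYF was -0.28, -0.23 and -0.18 for C1qa, C1qb and C1qc (adjusted p = 0.943, 0.914 and 0.991), XYF minus XXF was 0.18, 0.20 and 0.16, and the gonad effect was -0.16, -0.12 and -0.08. The part of marker level and length balance in the group differences was not tested further.

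C4b had the clearest separation between groups. It stood at 104.5, 106.5, 73.3, 95.6 and 98.3 CPM in the 5 XXF libraries, from 86.6 to 131 in XXM (median 99.4), from 114 to 142 in XYF (median 133) and from 88.5 to 138 in XYM (median 105). Every XYF library was above every XXF library. C4b was the only one of the 6 genes for which these groups did not overlap, against 0.552% of all genes with XYF wholly above XXF. The XXM and XYM ranges each reached into that of XYF through XXM replicate 4 (131 CPM) and XYM replicate 1 (138 CPM).

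XYF minus XXF was 0.46 ± 0.11 for C4b on the log2 scale (SE; 95% interval 0.24 to 0.69), a ratio of 1.38, with an unadjusted p of 0.000231 (rank 46 of 13766 genes) and an adjusted p of 0.0687 in edgeR's test. The call depended on the fit. C4b passed with DESeq2 (0.46, adjusted p = 0.00821), in a fit on these groups alone (0.46, adjusted p = 0.0356), with a choroid plexus covariate, the mean log2 CPM of its markers (0.47, adjusted p = 0.0226), and without XYF replicate 4 (0.50, adjusted p = 0.0485), XXM replicate 4 (adjusted p = 0.0350) or XYM replicate 1 (adjusted p = 0.0227). Without XXF replicate 3, the lowest library, the difference was 0.38 with an adjusted p of 0.279. In all, C4b passed in 3 of 8 other fits and in 3 of 23 omissions of a library. The highest adjusted p was 0.140 over the other fits and 0.279 over the omissions. The size ranged from 0.38 to 0.50 over all 23 omissions.

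The sex chromosome effect on C4b was 0.28 ± 0.07 (SE; adjusted p = 0.189) and passed with the choroid plexus covariate (0.32, adjusted p = 0.0319) and without XXM replicate 4 (0.32, adjusted p = 0.0381). It thus passed in 1 of 11 other fits and in 1 of 23 omissions of a library. XYM minus XXM was 0.09 ± 0.10 and XYM minus XYF was -0.29 ± 0.10 (SE), with adjusted p of 0.986 and 0.447. With the choroid plexus covariate XYM minus XXM was 0.17 (adjusted p = 0.833), and it ranged from 0.0038 to 0.18 over the omissions of single libraries. Without XYF replicate 4 the sex chromosome effect was 0.30 (adjusted p = 0.129) and XYM minus XYF was -0.33 (adjusted p = 0.573). The interaction of -0.38 ± 0.15 (SE) had an adjusted p of 0.999, so the larger XY difference in mice with ovaries was not shown to differ from that in mice with testes. XXM minus XXF was 0.09 ± 0.11 (SE, adjusted p = 0.850).

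C4b has a near-identical neighbour, C4a (chromosome 17, 34809092-34823454). Of 5280 stretches of 100 bases in the C4b transcript, 871 (16.5%) occur in C4a too, and none of the other members shared such a stretch with another gene. C4a was at 1.77 to 2.26 CPM by group mean, or 1.63% to 2.04% of the sum of both genes, and the sources used here do not say how reads from shared stretches were assigned. The sum of C4a and C4b was 97.4 ± 13.3 CPM in XXF, 103 ± 16.4 in XXM, 134 ± 9.74 in XYF and 110.0 ± 17.7 in XYM (SD).

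Interferon response genes were highest in the same group. Their summed level was 58.3 to 68.4 CPM in XXF, 51.4 to 64.5 in XXM, 91.0 to 160 in XYF and 53.5 to 97.9 in XYM. All 10 measured had higher fitted values in XYF than in XXF and lower ones in XYM than in XYF. Past the adjusted threshold, 8 were higher in XYF than in XXF (0.291% of all genes called in either direction). In XYM against XYF 8 were lower past it (0.225%). The haemoglobin genes and Alas2, markers of blood, summed to 108 to 256 CPM in XYF and 61.6 to 142 CPM in XYM. Past the adjusted threshold, 3 of 3 were lower in XYM than in XYF (0.225% of all genes called in either direction). In XXF they summed to 55.3 to 133 CPM. For XYF minus XXF all 3 were higher at an unadjusted p under 0.05 (5.17% of all genes in either direction). Their median difference was 0.67 on the log2 scale, and none passed the adjusted threshold (lowest adjusted p = 0.201). No astrocyte marker of 11 passed for XYF minus XXF, and their sums were 5504 to 6053 CPM in XXF and 5337 to 6167 CPM in XYF. The part of these lists in the C4b values was not tested.

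C3, the central component, was low and variable. It was at 3.42, 4.92, 1.15, 4.68 and 5.31 CPM in XXF, at 4.86 to 7.81 in XXM (median 6.51), at 3.87 to 8.90 in XYF (median 5.91) and at 2.78 to 7.47 in XYM (median 5.16). XXF replicate 3, the lowest library by far, held 21 counts, and it was also the lowest of all libraries for C4b. All group ranges overlapped.

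The mean of C3 was lowest in XXF. XXM minus XXF was 0.74 ± 0.27 (SE; 95% interval 0.18 to 1.30; adjusted p = 0.629) and XYF minus XXF was 0.70 ± 0.28 (SE; adjusted p = 0.783). Without XXF replicate 3 they were 0.50 and 0.46, and without XYF replicate 4 XYF minus XXF was 0.79 (adjusted p = 0.626). XYM minus XXM was -0.31 ± 0.25 and XYM minus XYF was -0.27 ± 0.25 (SE), the latter -0.37 without XYF replicate 4 (adjusted p = 0.803). The interaction was -1.01 ± 0.37 (SE, unadjusted p = 0.0117) and had an adjusted p of 0.999. With the choroid plexus covariate XXM minus XXF was 0.56 (adjusted p = 0.843) and XYM minus XXM was -0.15 (adjusted p = 0.940). The 95% interval for XYM minus XXM reached from -0.83 to 0.20.

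Serping1, the inhibitor of C1r and C1s, had almost the same mean in all groups, at 6.72 ± 2.90 CPM in XXF, 6.65 ± 1.15 in XXM, 6.87 ± 1.87 in XYF and 6.72 ± 1.56 in XYM (SD). XXF replicates 1 to 5 were at 11.8, 4.92, 6.31, 5.07 and 5.47 CPM, and the other groups ran from 5.40 to 8.57, from 4.69 to 10.2 and from 5.26 to 9.61 CPM for XXM, XYF and XYM. The fitted differences lay between -0.03 and 0.02 for the main effects and pairwise contrasts, with 95% intervals that reached from -0.47 to 0.46. The sign of such small values is not stable to single libraries. With the choroid plexus covariate XYM minus XXM was 0.30 (adjusted p = 0.806), XXM minus XXF was -0.27 (adjusted p = 0.866), the sex chromosome effect was 0.16 and the gonad effect was -0.14.

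Among the C1q genes the level of one followed the level of the others. After group means were removed from log2 CPM, Pearson's r over the 23 libraries was 0.854 for C1qa and C1qb, 0.760 for C1qa and C1qc and 0.885 for C1qb and C1qc, with Spearman's rho of 0.792, 0.739 and 0.832. Permutation p adjusted over the 15 pairs of the 6 genes were 0.000225, 0.00250 and 0.000225 for r, and 0.000600, 0.00495 and 0.000600 for rho. Without the 2 libraries farthest from the median of the first gene, r was 0.854, 0.744 and 0.834. Genes outside the family reached similar r, such as 0.807 for C1qa with Bckdha and 0.894 for C1qc with Ndufa13. The ratio of C1qa to C1qb ranged from 0.934 to 0.967 by group mean and that of C1qc to C1qb from 0.847 to 0.902.

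**Figure D3:**
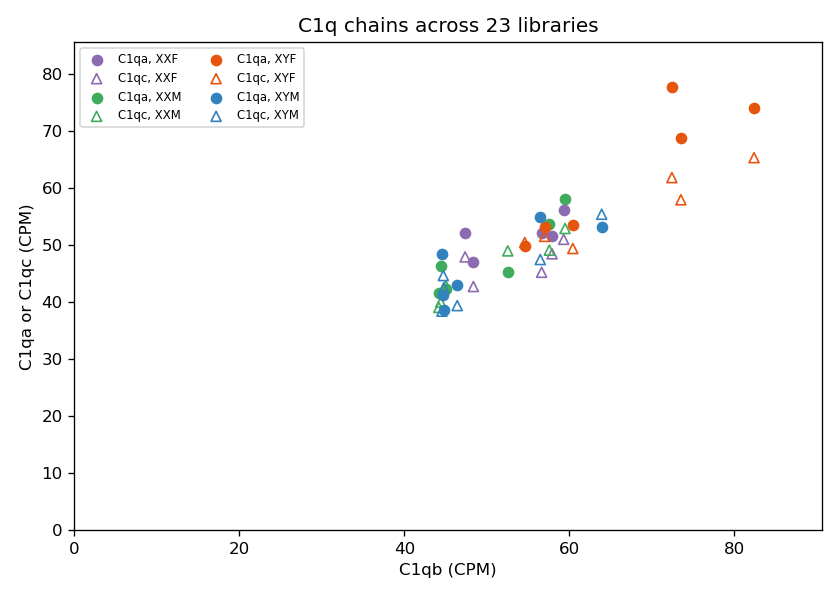
C1qa (filled circles) and C1qc (open triangles) against C1qb, all in CPM, in the 23 libraries coloured by group. The 3 XYF libraries with C1qb above 72 CPM also hold the highest values of both other chains.

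No relation of C1q with the other members was shown within groups. None of the 9 pairs of a C1q gene with C3, C4b or Serping1 passed, r lying between -0.119 and 0.209. With group means left in, r with C4b was 0.419 for C1qa, 0.42 for C1qb and 0.415 for C1qc, values that include the group differences and were not tested. C3 and C4b had an r of 0.569 (permutation p = 0.0133, adjusted p = 0.0499), but rho was 0.440 (adjusted p = 0.192). Without XXF replicate 3 and XYM replicate 4 r was 0.374, so the size of r depended on those libraries. Serping1 passed with none of the other 5 genes.

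Relations of the 6 genes with 5 library scores, chosen after the data were seen, made 30 more comparisons with permutation p adjusted over them. The microglia score gave r of 0.659, 0.772 and 0.617 for C1qa, C1qb and C1qc (adjusted p = 0.0258, 0.00247 and 0.0279) and rho of 0.700, 0.730 and 0.579 (adjusted p = 0.0180, 0.00790 and 0.0522). Without XYF replicate 4 and XYM replicate 3, r was 0.615, 0.697 and 0.494. The transcript length score gave r of 0.645, 0.780 and 0.813 (adjusted p = 0.0157, 0.00130 and 0.000450) and rho of 0.656, 0.638 and 0.806 (adjusted p = 0.0159, 0.0181 and 0.000450), and r of 0.571, 0.665 and 0.716 without XYF replicate 6 and XYM replicate 3. Both scores thus ran with C1q within groups.

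Serping1 followed the score of meningeal and vascular fibroblasts, cells of the brain's coverings and vessel walls, with r of 0.869 and rho of 0.783 (adjusted p = 0.000450 for both), and r of 0.755 without XXF replicate 1 and XYF replicate 5. XXF replicate 1 had the highest Serping1 of all libraries. The r of C4b with the interferon score was 0.484 (adjusted p = 0.103), with rho of 0.427 (adjusted p = 0.154), and 0.136 without XYM replicates 1 and 2. The astrocyte score did not pass with any of the 6 genes, r for C4b being 0.072 and for C3 0.397.

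Among 13736 genes at a mean of at least 1 CPM, those most like each member across the 23 libraries, again as r of log2 CPM with group means removed, were taken as descriptions. For C1qa they were C1qb (0.854), Bckdha (0.807) and Gpx1 (0.802), for C1qb they were C1qc (0.885), Coa3 (0.876) and Nedd8 (0.871), and for C1qc they were Ndufa13 (0.894), C1qb (0.885) and Arf5 (0.875). For C4b they were Itga7 (0.834), Anks1 (0.796) and Pard6b (0.791), and for C3 they were Ttyh2 (0.827), Litaf (0.813) and Acot1 (0.788). For Serping1 they were the fibroblast transcription factor gene Foxc1 (0.862), the collagen gene Col3a1 (0.838) and the transporter gene Slc22a8 (0.837). Without XXF replicate 3 and XYM replicate 4, the 2 libraries farthest from the median of C3, its r were 0.622, 0.649 and 0.633. With the same omission made for each other member, r were 0.754, 0.677 and 0.733 for Serping1 and 0.782, 0.661 and 0.729 for C4b. For the C1q genes they lay between 0.794 and 0.870. All these genes share their libraries, and the r are the highest of many.

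The rest of the pathway was taken from 4 lists, of which 25 genes are in the table. None of the 25 passed in any of the 7 comparisons (edgeR, with the same 0 under DESeq2 and every other alternative run). The smallest adjusted p in the main edgeR fit was 0.256, and some alternatives gave smaller ones. At an unadjusted p under 0.05, the counts were 0 for the sex chromosome effect (6.78% of all genes), 2 for the gonad effect (13.6%) and 0 for the interaction (3.23%). They were 0 for XYF minus XXF (5.17%), 0 for XYM minus XXM (5.29%), 1 for XXM minus XXF (7.71%) and 2 for XYM minus XYF (8.63%). The median log2 fold change for XYF minus XXF was 0.01 over the 25 genes and 0.29 over the 6, beside 0.01 over all genes. For XYM minus XYF the medians were 0.04, -0.31 and -0.01. Members and lists were chosen with earlier results known, so these medians are descriptions.

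Of the initiation list 3 of 14 genes were measured, C1ra, a protease of the C1 complex, Masp1, a lectin pathway protease, and Colec12, a collectin. C1ra was at 3.53 ± 0.839 CPM (SD, n = 23) and differed for XYF minus XXF by 0.20 ± 0.21 (SE, adjusted p = 0.997), a difference within its spread. Of later and alternative components 4 of 12 were measured. C2, which C1s cleaves, was at 1.67 ± 0.754 CPM, Cfb, the alternative pathway protease, at 4.30 ± 0.792, Cfp, which encodes properdin, at 8.31 ± 2.46 and C4a at 2.03 ± 0.633 CPM. Their XYF minus XXF differences were -0.27 ± 0.34, 0.10 ± 0.16, -0.11 ± 0.26 and 0.27 ± 0.27 (SE).

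Among 14 of 18 regulators measured, 5 were higher and 9 lower by fitted value for XYF minus XXF, none past the test. Clu, which encodes the extracellular chaperone clusterin, took the most counts at 828 ± 68.5 CPM, followed by the neuronal genes Sez6l (397 ± 31.1), Sez6l2 (376 ± 27.8) and Sez6 (239 ± 21.8). Their differences for XYM minus XYF were -0.09 ± 0.06, 0.10 ± 0.06, 0.02 ± 0.06 and 0.13 ± 0.07 (SE). Csmd1, a complement regulator of neurons named after its value was seen, differed by 0.32 ± 0.10 in the same contrast (SE, unadjusted p = 0.00279, adjusted p = 0.309), and by 0.19 with the microglia covariate (adjusted p = 0.787) and 0.16 with the length score (adjusted p = 0.999). The adjusted p of Csmd1 in that contrast was 0.147 with DESeq2 and 0.111 in edgeR's test without XYF replicate 1. Cd55, named in the same way, which encodes a surface protein that breaks up the C3-cleaving enzyme, differed by 0.56 ± 0.21 for XXM minus XXF (SE, adjusted p = 0.629). With the choroid plexus covariate it differed by 0.18 (adjusted p = 0.866). All 10 choroid plexus markers had higher fitted values in XXM than in XXF (median 1.66 on the log2 scale), none past the adjusted threshold.

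Of receptors 4 of 9 were measured. Itgam and Itgb2, the chains of complement receptor 3 on microglia, were at 31.9 ± 3.64 and 7.68 ± 1.25 CPM, C3ar1, the receptor of the C3a fragment, at 2.57 ± 0.624 and Cd93 at 7.72 ± 0.972 CPM. For XYM minus XYF, Itgb2 differed by -0.32 ± 0.13 (SE, unadjusted p = 0.0186, adjusted p = 0.516) and Itgam by 0.05 ± 0.09. The pathway plot shows these genes spread about 0 beside the 6 members.

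**Figure D4:**
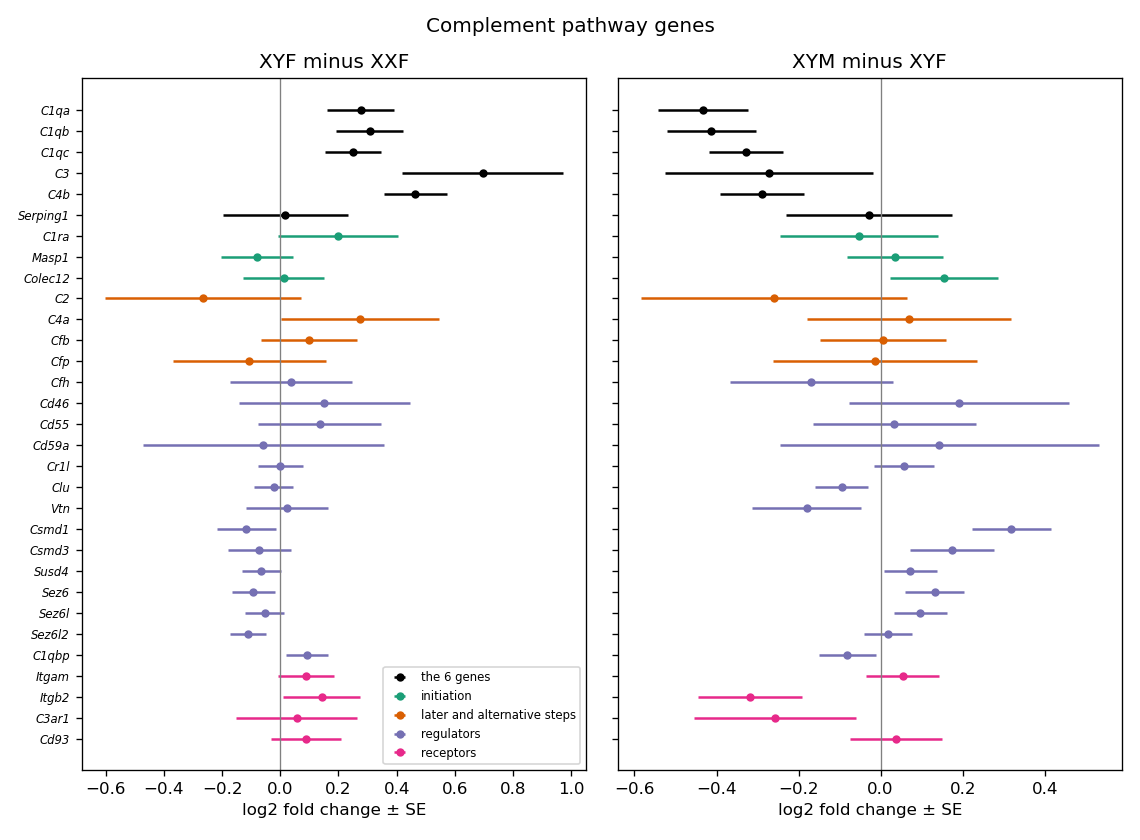
Log2 fold change ± SE (edgeR) of the 6 complement genes (black) and of 25 further pathway genes coloured by role, for XYF minus XXF and XYM minus XYF. C1qa, C1qb, C1qc, C3 and C4b lie to the right of 0 in the first panel and to the left in the second, and no gene passed an adjusted p of 0.05 in either.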

How the data were processed

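RNA of 23 mouse hippocampi was depleted of ribosomal RNA and sequenced in strand-specific libraries, per the labels' protocols. The deposited table holds estimated counts, which need not be whole, per the file headers, and these were rounded to whole numbers for count tests. It also holds normalized values that the authors deposited on a log2 scale, which served an alternative test. The file headers state a cut-off of 20 raw counts, to be met by all libraries of at least 1 group, and all 6 members passed in all 4 groups. The submitters' processing notes name mm10 and DESeq. The sources used here name neither aligner nor counting program.

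Groups came from the labels. Replicate numbers follow accession order and only name libraries. Counts were scaled by the trimmed mean of M-values, filterByExpr removed 0 of 13766 genes. Quasi-likelihood tests of edgeR (version 4.0.16) in R (version 4.3.3) were fitted with 4 group means over all libraries, with Benjamini-Hochberg adjustment over all genes at 0.05. Standard errors were derived from the fold change and its F statistic and are approximate. CPM used scaled totals, and log2 CPM a prior count of 2. Libraries are separate animals, and their number limits the precision. Relations used 100000 permutations within groups. Pathway gene names are the 4 with the highest mean CPM per list plus any called, and for each member the 3 genes with the highest r. Alternatives used DESeq2 (version 1.42.0), limma (version 3.58.1), other filters and scaling, covariates, fits on pairs of groups and leaving out each library. The covariates in the pairwise contrasts and the transcript length score were chosen after the data were seen. The scripts were tested on simulated data. The members and gene lists were chosen with earlier results of these data known. Pathway genes that are not in the table were not analysed here. Gene coordinates are those of the table, and transcript lengths are those of GENCODE for GRCm38. All tests were 2-sided.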

Additional observations from a re-analysis of the deposited data

Results flagged for a closer look

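Of 24 groups of values (6 genes in 4 groups), 2 held a library that stood far from the others of its group, and chance marks about 1 in 20. C4b in XXM replicate 4 was at 131 CPM, with the other XXM libraries at 86.6 to 103 CPM, a gap of 0.640 of the group's range against a limit of 0.625. Without that library the XYF minus XXF and sex chromosome differences of C4b passed the threshold. Serping1 in XXF replicate 1 was at 11.8 CPM, with the other XXF libraries at 4.92 to 6.31 CPM, a gap of 0.799 of the range against a limit of 0.710.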

How the results depend on the processing

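No paired analysis was possible because replicate numbers follow accession order and pair no animals. No pathway gene outside the 6 was called in any alternative. The count of the 6 genes called, 0 throughout, became 1 for XYF minus XXF (C4b) with DESeq2, with the choroid plexus covariate and in the fit on 2 groups, 1 for the sex chromosome effect (C4b) with that covariate, and 1 for XYM minus XYF (C1qa) with DESeq2. Leaving out single libraries it ranged from 0 to 1 for XYF minus XXF and the sex chromosome effect and from 0 to 2 for XYM minus XYF. The relation of C3 and C4b lost its call with a prior count of 0.5 (r = 0.57, adjusted p = 0.0502). The cause of these changes was not tested.

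Counts of all genes called moved too. For the sex chromosome effect, 39 genes became 60 with DESeq2, 68 with voom quality weights and 63 with the choroid plexus covariate. For the gonad effect, 22 became 98 with DESeq2, 76 with quality weights, 44 with the choroid plexus covariate, 13 with the library total and 14 with the length score. For XYM minus XYF, 31 became 47 with DESeq2, 16 with the microglia covariate, 19 with the length score and 15 in the fit on 2 groups. For XXM minus XXF, 0 became 1 with DESeq2. Leaving out single libraries gave 17 to 85 for the gonad effect, 0 to 3 for the interaction and 19 to 50 for XYM minus XYF.

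Values near 0 changed sign. With the microglia covariate, XYM minus XXM became 0.0293 for C1qb, 0.000955 for C1qc and -0.0116 for Serping1, XYF minus XXF became 0.110 for Cfp, and XYM minus XYF became -0.0119 for Sez6l2. With the length score, XXM minus XXF became 0.0165 for C1qc and XYM minus XYF became -0.0166 for Sez6l2. The gonad effect on Serping1 became 0.0127 with voom, 0.0926 with quality weights and 0.0190 on the deposited log2 values, and its interaction became -0.0175, -0.0453 and -0.0672 there, -0.128 with the microglia covariate and -0.0132 with the length score. Leaving out single libraries, Serping1 ranged from -0.0516 to 0.178 (sex chromosomes), -0.0971 to 0.129 (gonad), -0.304 to 0.145 (interaction), -0.124 to 0.330 (XYF minus XXF), -0.114 to 0.104 (XYM minus XXM), -0.130 to 0.281 (XXM minus XXF) and -0.163 to 0.114 (XYM minus XYF). XYM minus XXM ranged from -0.0929 to 0.0236 for C1qa, -0.0890 to 0.0430 for C1qb and -0.0943 to 0.0231 for C1qc, and XXM minus XXF from -0.00811 to 0.128 for C4b. Among pathway genes, XYF minus XXF ranged from -0.457 to 0.0304 for C2, -0.0354 to 0.159 for Cfb and -0.216 to 0.0139 for Cfp, and XYM minus XYF from -0.00713 to 0.0390 for Sez6l2. The low counts of C3 and Serping1 limit their precision.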
